A study of Homo sapiens with 7 samples.

Results

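The elements numbered above 56000 and up to 66000 form a block of a HepG2 reporter library in which neighbouring numbers tend to have like activity. They were chosen by number alone, and a copy was kept if every DNA library held 10 or more counts of it. The range was marked out because of this likeness, so the likeness is described here and not tested. Of the 10000 numbers, 9907 were listed as sequences and 93 were not. These sequences gave 19770 copies, a copy being a sequence in the forward or the reverse orientation. The DNA filter kept 19637 copies, 9814 forward and 9823 reverse, of 134435 kept in the whole library. Both orientations were kept for 9780 sequences.

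A massively parallel reporter assay asks whether a short stretch of DNA can raise transcription from a promoter that is weak on its own. Each element sits before such a promoter, and a transcribed barcode reports which element was there. Barcode RNA over integrated barcode DNA is the activity of the element. Enhancers are classically expected to act in either orientation, whereas promoters and some binding site arrangements act in one, so an assay that holds both orientations of each element measures this directly. HepG2 is a human liver carcinoma line, and transcription factors of the hepatocyte are active in it.

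The study tested ideas about factor binding and its ChIP-seq signal. Test elements of 170 nucleotides were delivered by lentivirus, and 3 replicates of HepG2 cells each gave a DNA and an RNA library 48 hours later. A plasmid library tied barcodes to elements. Whether each replicate was its own infection is not said in the labels, so a p-value reflects the scatter among 3 libraries of each kind, and that scatter may be technical. DNA libraries held 34860651 to 44258011 counts and RNA libraries 108324310 to 114738370. The 10000 numbers took 14.8% to 15.0% of the DNA counts and 10.4% to 10.5% of the RNA counts. The median copy had 309, 242 and 238 DNA counts and 498, 473 and 465 RNA counts in replicates 1 to 3. The median number of barcodes was 89, with quartiles of 63 and 119 and extremes of 1 and 399, and 424 of the kept copies carried fewer than 20. The tables used here give neither bases nor coordinates, so elements are named by number and orientation.

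Most of these elements had low activity, with a minority of active ones. The log2 RNA/DNA, relative to the centre set by TMM scaling over the whole library, had a median of -0.29, and the middle 90% of copies lay between -0.80 and 0.84. By the quasi-likelihood test of edgeR, with p-values adjusted over the whole library and called under 0.05, 2467 copies (12.6%) were higher in RNA than in DNA, against 35.2% of all copies tested. In the other direction 9603 copies (48.9%) were lower, against 32.2% of all copies. A called rise of at least 2-fold was found for 753 copies (3.83%), against 17.7% of all copies. A called rise of at least 4-fold was found for 71 of the 19637 copies, against 2925 of 134435 in the whole library. With library sizes left unscaled by TMM, the counts were 1250 higher and 16065 lower, so the split into higher and lower depends on where the centre is placed.

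The likeness between numbers faded with distance, over about 16 numbers, and no period was seen at the distances computed. To keep the barcodes on either side apart, the forward copy of a number was set against the reverse copy of a later number. Above 57000 Pearson's r of log2 RNA/DNA was 0.636 ± 0.024 (SD, n = 3 replicates) between the orientations of the same number. It was 0.612 ± 0.019 for the next number, 0.540 ± 0.022 at a distance of 5 and 0.352 ± 0.015 at 10. Spearman's correlation was lower, 0.382 at a distance of 1 and 0.221 at 10. Pearson's r was 0.143 ± 0.009 at a distance of 14, 0.035 ± 0.003 at 16 and 0.008 ± 0.007 at 17. Between distances of 5 and 16 the fall was close to a straight line of -0.0468 per number, which crossed 0 at 17.2. Beyond it r was computed at every distance from 18 to 60 and then in steps of 5 up to 200. These values lay between -0.0588 (at 25) and 0.0303 (at 130). Within 1 orientation the likeness faded sooner. Forward copies had r = 0.223 ± 0.004 with forward copies at a distance of 10 and 0.069 ± 0.007 at 14. Reverse copies had 0.274 ± 0.006 and 0.080 ± 0.007 with reverse copies. The reverse copy of a number was not set against the forward copy of a later one. These are correlations across elements, which are not independent replicates, so they carry no p-value. Activity was thus alike beyond a distance of 10 numbers.

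Where blocks of fixed size started made a small difference to how well they described the values. With blocks of 10 numbers, the adjusted R2 of the forward copies was 0.563 at the best start and 0.551 at the worst. With blocks of 16 it was 0.473 and 0.435. The widest gap among sizes of 5 to 30 was 0.0702, at a size of 23 (0.390 and 0.319). The block size that explained most was the smallest tried, 2 numbers, in each of 5 equal sections of the range, and it was also 2 when chosen on reverse copies or without any 1 of the replicates.

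The steps along the numbers showed the distance of 16 in another way. A step was taken as the mean of 3 numbers minus the mean of the 3 before it, in the forward copies, and set against the steps of the reverse copies. At the same number the forward and reverse steps had r = 0.420 ± 0.022 (SD, n = 3 replicates). At later numbers r fell, turned negative at a distance of 13, and was lowest at 16, with -0.223 ± 0.018. The values beside it were -0.174 ± 0.008 at 15 and -0.211 ± 0.013 at 17, and by a distance of 30 r was -0.004 ± 0.016. A step up at one number thus went with a step down about 16 numbers later. This comparison was added after the values were seen.

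The long runs did not fill the whole range. In windows of 250 numbers, r between the forward copy of a number and the reverse copy of the next was 0.107 to 0.400 in the 4 windows up to 57000, with a median of 0.171. In the 36 windows above 57000 the median was 0.554 and the highest 0.809. The change was abrupt. In the window ending at 57000 r at a distance of 1 was 0.148 ± 0.030 and at a distance of 5 it was 0.010 ± 0.059 (SD, n = 3 replicates). In the next window these values were 0.713 ± 0.003 and 0.610 ± 0.051. The median absolute step between neighbouring numbers was 0.306 on the log2 scale in the last 100 numbers up to 57000, 0.186 in the next 100 and 0.129 in the 100 after those. The 3 windows before 57000, with a median step of 0.243, were closer to the numbers between 31000 and 56000 (0.229) than to those above 57000 (0.134). At the upper end the likeness went on past the range, with r of 0.555 ± 0.022 at a distance of 1 in the window up to 66000 and 0.711 ± 0.046 in the window after it. The lowest value among the long-run windows, 0.069, belonged to 62251 to 62500, where the SD of log2 RNA/DNA over sequences was 0.177 against a median of 0.399 for these windows. Numbers up to 57000 are kept among the members below and are given apart where they differ.

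To describe runs, the number axis was cut where the mean activity of both orientations changed, with at least 5 numbers to a run. This gave 356 runs, 306 of them starting above 57000, with a median of 16 sequences (quartiles 9 and 34, largest 240). Run membership accounted for an adjusted R2 of 0.679 in forward and 0.764 in reverse copies above 57000, and for 0.284 and 0.296 up to 57000. The runs were cut on the mean of these same values, which raises these figures. Over the whole range reverse copies had 0.722 with these runs, and 0.586 with runs cut on forward copies alone. Mean activity was at least 2-fold above the centre in 33 of the 356 runs and at least 4-fold in 2. On counts summed over a run, taking each of the 356 runs once per orientation, edgeR called 291 higher and 338 lower, against 52.6% and 38.8% over the library. The library had 596 runs, these 356 among them, so its shares rest largely on the same runs. The runs were cut from the same counts, so these calls describe levels and not boundaries.

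Activity was gathered in short stretches separated by long inactive ones. Joining neighbouring runs with a mean log2 RNA/DNA of at least 0.5, a threshold set after the values were seen, gave 48 active stretches above 57000. They covered 642 sequences, or 7.23% of those measured there, and held 652 of the 708 copies (92.1%) called at least 2-fold higher. The stretches were chosen for high values in the same counts, so the latter share is largely set by that choice. A length of 16 numbers was the most common, in 10 stretches, and the next most common, 5 numbers, was found in 6. In all, 9 stretches were 5 to 8 numbers long, 15 were 9 to 13, 18 were 14 to 18 and 6 were 19 to 26. Starts lay 52 to 525 numbers apart, with a median of 160 and a coefficient of variation of 56.6%, so the spacing was irregular. In 41 of the 48 the mean was at least 0.5 in each orientation. The numbers flanking the stretches had a median log2 RNA/DNA of -0.19. Copies inside had a median of 100 barcodes and copies outside 90. The runs just inside the threshold were 64364 to 64380 (0.51) and 60625 to 60635 (0.51), and those just outside were 58555 to 58559 (0.49) and 63925 to 63935 (0.48).

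The highest run of all lay at 57540 to 57551, where 11 of 12 numbers were measured in both orientations. Its log2 RNA/DNA was 2.14 (SE 0.04, adjusted p = 2.51e-16 by edgeR) forward and 2.06 (SE 0.04, adjusted p = 6.13e-15 by edgeR) reverse. In the 3 replicates the mean over its forward copies was 2.01, 1.98 and 1.90, and over its reverse copies 1.95, 1.94 and 1.84. The orientations thus overlapped, and their difference of 0.08 (SE 0.07, adjusted p = 0.347 by edgeR) was not called. The whole stretch ran from 57535 to 57556 with a steep lower edge. The 3 numbers before it, Seq_57532, Seq_57533 and Seq_57534, had forward values of -0.01, -0.27 and -0.17 and reverse values of -0.18, -0.18 and -0.12. Seq_57535 then had 1.08 forward and 0.32 reverse, and Seq_57536 had 1.97 and 1.23. From Seq_57539 to Seq_57549 forward values stayed between 1.87 and 2.25 and reverse values between 1.75 and 2.20, a plateau. Seq_57550 stood above it with 2.96 (SE 0.10) forward and 2.37 (SE 0.09) reverse. Activity then fell unevenly. Seq_57552 had 0.74 and 1.49, Seq_57555 had 0.10 and 0.00, and the last number, Seq_57556, had 0.68 and 0.55.

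The other runs among the highest 5 had like levels in both orientations. Run 62225 to 62235 had 2.00 (SE 0.09) forward and 2.31 (SE 0.08) reverse, with replicate means of 1.80, 1.77 and 1.60 forward and of 2.16, 2.05 and 1.88 reverse. Each reverse mean was above every forward mean, but the difference of -0.31 (SE 0.13, adjusted p = 0.0573 by edgeR) was not called. Its highest copy was Seq_62230_rev at 2.91 and its lowest Seq_62235_fwd at 1.08. Run 60247 to 60257 had 1.77 (SE 0.05) forward and 1.98 (SE 0.03) reverse, and here the reverse excess was called (-0.22, SE 0.07, adjusted p = 0.0104 by edgeR). Its copies lay between 1.35, for Seq_60257_fwd, and 2.38, for Seq_60254_rev. Run 64439 to 64449 had 2.07 (SE 0.04) forward and 1.83 (SE 0.03) reverse, a called forward excess of 0.24 (SE 0.06, adjusted p = 0.00258 by edgeR). Its copies lay between 1.38, for Seq_64449_fwd, and 2.54, for Seq_64439_fwd. Run 58361 to 58369 had 1.88 (SE 0.03) forward and 1.83 (SE 0.03) reverse, not called different (0.05, SE 0.04, adjusted p = 0.245 by edgeR). Its copies ranged from 1.48, for Seq_58361_rev, to 2.09, for Seq_58364_fwd. All 5 of these runs held 9 to 11 measured sequences.

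The lowest runs were shallow by comparison. Run 62842 to 62853 had -0.72 (SE 0.04) forward and -0.68 (SE 0.03) reverse over 12 sequences, with replicate means of -0.59, -0.71 and -0.51 forward and -0.62, -0.60 and -0.58 reverse. Its lowest copy was Seq_62849_fwd at -0.99 and its highest Seq_62850_fwd at -0.43. Run 59604 to 59622 had -0.46 (SE 0.07) forward and -0.86 (SE 0.06) reverse, and run 57602 to 57614 had -0.65 (SE 0.07) and -0.69 (SE 0.06). In the former the copies ranged from -1.39, for Seq_59604_rev, to -0.20, for Seq_59622_fwd, and in the latter from -1.12, for Seq_57603_rev, to -0.15, for Seq_57611_fwd. Both of these runs take in numbers that could not be measured in both orientations, 59604 to 59613 and 57603 to 57605, whose listed copies had a median of 36.5 and 55 DNA counts over the 3 libraries. The part of low DNA counts in these 2 low runs was not tested.

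Along most active stretches forward activity declined relative to reverse activity. In stretches of 9 to 18 numbers the mean forward value was higher near the lower numbers and the mean reverse value near the higher ones. In the 18 stretches of 14 to 18 numbers, cut into 5 equal parts, the mean forward log2 RNA/DNA per replicate was 1.02 ± 0.03 (SD, n = 3 replicates) in the first part, 1.05 ± 0.03, 0.97 ± 0.02 and 0.84 ± 0.04 in those between, and 0.68 ± 0.01 in the last. The reverse copies of the same sequences had 0.42 ± 0.02, 0.78 ± 0.01, 0.90 ± 0.03, 1.03 ± 0.04 and 1.06 ± 0.06. Forward minus reverse thus went from 0.60 ± 0.05 through 0.07 ± 0.04 in the middle part to -0.39 ± 0.06. These per-replicate values were formed with a pseudocount of 1 CPM, which understates the change of rare copies. The shorter stretches of 9 to 13 numbers had a difference of 0.45 ± 0.07 in the first part and -0.37 ± 0.02 in the last over 15 stretches. In the 6 stretches of 19 to 26 numbers both orientations were highest in the middle part, at 1.70 ± 0.09 forward and 1.70 ± 0.06 reverse. Their difference still went from 0.43 ± 0.07 in the first part to -0.55 ± 0.08 in the last.

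The edges of a stretch therefore looked different in the 2 orientations. In the stretches of 14 to 18 numbers, forward copies stood at 0.07 ± 0.02 (SD, n = 3 replicates) at the number before the start and at 1.00 ± 0.03 at the start. The reverse copies stood at -0.31 ± 0.06 and 0.29 ± 0.03 there, and reached 0.70 ± 0.05 at the fourth number. At the other end, forward copies had declined to 0.57 ± 0.03 at the last number and stood at -0.02 ± 0.07 after it. Reverse copies were still at 1.01 ± 0.05 at the last number and at -0.07 ± 0.02 after it. Forward activity rose steeply and declined gradually with the number, and reverse activity did the opposite. The place of each edge was chosen from the mean of both orientations, so the size of the rise and fall is set by that choice, whereas their difference between orientations is not.

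The tilt was tested stretch by stretch as an interaction on summed counts. For each stretch with at least 8 sequences, the change from the lower to the higher numbers in forward copies was set against the same change in reverse copies. Of 40 such active stretches, 39 had a negative tilt. By edgeR, adjusted over all 212 stretches of the library, 31 of the 40 fell and 1 rose, against 30.7% and 21.7% of all stretches. In 24 of the 31 forward activity went down and reverse activity up, in 5 both went up and in 2 both went down. The median tilt was -0.62 on the log2 scale, made up of a median forward change of -0.22 and a median reverse change of 0.38. Per replicate the median tilt was -0.66, -0.61 and -0.60, with 39, 37 and 37 of the 40 stretches negative. Among the 48 other stretches above 57000, which lay under the threshold, 11 fell and 23 rose, with a median of 0.07. Among the 118 stretches outside the range, active and inactive ones together, 23 fell and 20 rose, with a median of -0.01. Active stretches outside the range were not taken apart. The question was posed after the values were seen, so these counts are a description of these libraries. With the threshold for a stretch at 0.3, 0.7 or 1.0 instead, 45 of 47, 31 of 32 and 21 of 21 stretches had a negative mean tilt over the replicates.

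The largest tilt was that of stretch 65780 to 65789, where forward and reverse crossed. Its tilt was -1.64 (SE 0.11, adjusted p = 2.28e-17 by edgeR). Forward values were 2.23, 1.78, 1.74, 1.45 and 1.05 from Seq_65780 to Seq_65784, while the reverse values of these numbers were 0.60, 0.73, 0.79, 1.02 and 0.86. From Seq_65785 to Seq_65789 the forward values were 1.20, 1.25, 0.81, 0.82 and 1.37, and the reverse values were 1.67, 1.72, 1.52, 1.91 and 2.58. The next number, Seq_65790, had -0.03 and -0.01. Each of these values had a standard error of 0.08 to 0.13, so the crossing was larger than the error of single copies.

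In the most active stretch of the common length, 64434 to 64449, the tilt was smaller, at -0.50. Forward copies led at Seq_64434 (1.70 against 0.94) and at Seq_64436 (1.86 against 0.99). They peaked at Seq_64439 with 2.54 against 1.96. The orientations were closer at Seq_64446 (2.10 and 1.89), and reverse copies led at Seq_64447 (2.09 against 2.23) and Seq_64449 (1.38 against 1.74). At Seq_64450 activity had dropped to 0.12 and 0.29. Within the stretch the forward copy of Seq_64437 was low, at 0.99 between neighbours of 1.86 before it and 1.96 after it. Its reverse copy, at 0.79, lay under neighbours of 0.99 and 1.21 but above that of Seq_64435, at 0.73.

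Stretch 62225 to 62240 had 2 levels. Seq_62226 to Seq_62234 had forward values of 1.70 to 2.41 and reverse values of 1.74 to 2.91. At Seq_62236 the values were 0.47 and 0.95, and they ended at 0.05 and 0.50 at Seq_62240, with -0.10 and -0.20 at the number after it. Among the 40 active stretches tested, the only one with a called rise was 62928 to 62938, with a tilt of 0.76 (SE 0.10, adjusted p = 4.84e-09 by edgeR). It was uneven, with 1.49 forward at Seq_62929, -0.04 at Seq_62931, 0.92 at Seq_62932, 0.24 at Seq_62933 and 1.57 at Seq_62934, and with reverse values of 1.16, 0.64, 1.02, 0.75 and 0.58 at those numbers.

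Single sequences were called higher forward at a share close to that of the whole library. Of 9780 sequences, edgeR called 2665 (27.2%) higher forward and 418 (4.27%) higher reverse, against 24.7% and 7.68% of all sequences. Without replicate 1, 2 or 3 in turn, the forward count was 1701, 1671 and 1762, and the reverse count without replicate 1 or 2 was 274 and 265. The median forward minus reverse difference was 0.25, against 0.18 over all sequences of the library. The difference too was alike between neighbours, but over a shorter distance than activity. Above 57000 r of the difference was 0.390 ± 0.019 (SD, n = 3 replicates) at a distance of 1, 0.190 ± 0.004 at 5 and 0.022 ± 0.012 at 10. In the 3 windows before 57000 it was 0.093 ± 0.024 at a distance of 1 and -0.051 ± 0.020 at 5.

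Over whole runs, forward copies exceeded reverse copies in 240 of 356 runs and fell short in 41, against 67.3% and 9.06% of all runs in the library. The library shares are over 596 runs that include these 356, so they rest largely on the same runs. Active runs were divided more evenly. Of the 68 runs above 57000 with a mean of at least 0.5, 30 were called higher forward and 21 higher reverse, with a median difference of 0.07. Of the 238 runs below it, 174 were higher forward and 15 higher reverse, with a median of 0.25. Of the 68 active runs, 67 were called higher in RNA than in DNA in each orientation. The runs were chosen for a high mean of both orientations in the same counts, so these calls are largely set by that choice. They also depend on where TMM scaling places the centre.

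The runs with the largest orientation differences were much weaker in 1 orientation. Run 61672 to 61676 had the largest forward excess, 1.47 (SE 0.08, adjusted p = 5.99e-15 by edgeR). Its replicate means were 1.02, 1.00 and 0.79 forward and -0.31, -0.38 and -0.36 reverse, with no overlap. All 5 of its sequences followed this, from Seq_61672 (1.26 forward, -0.31 reverse) to Seq_61676 (0.54 forward, -0.52 reverse). Run 64259 to 64263 had 1.46 (SE 0.05) forward and 0.21 (SE 0.05) reverse, and run 63477 to 63483 had 1.55 (SE 0.03) and 0.32 (SE 0.03). With TMM scaling their reverse values were still called higher in RNA than in DNA (adjusted p = 0.000442 and 1.03e-07 by edgeR). Both opened an active stretch whose later numbers were also active in reverse.

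The largest reverse excess was that of run 58370 to 58376, at -1.21 (SE 0.07, adjusted p = 2.52e-14 by edgeR). Its replicate means were -0.07, 0.11 and 0.10 forward and 1.16, 1.21 and 1.03 reverse, again with no overlap. The run followed directly on run 58361 to 58369, which was active both ways. Forward values lay between -0.53, at Seq_58376, and 0.73, at Seq_58370, while reverse values stayed between 0.97, at Seq_58372, and 1.51, at Seq_58370. Run 57188 to 57193 had 0.34 (SE 0.05) forward and 1.24 (SE 0.04) reverse, and run 62664 to 62678 had -0.07 (SE 0.08) and 0.70 (SE 0.04). The last of these takes in numbers not measured in both orientations, 62666 to 62670.

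Elements that broke from their run were found by setting each copy against the summed counts of the other copies of its run in the same orientation. By edgeR, 2596 copies (13.2%) were higher than their run and 3337 lower, against 16.5% and 30.5% of all copies in the library. Without replicate 3 these counts were 1320 and 1574, and without replicate 1 the lower count was 2134. Outside the range the runs were cut separately and were longer on average. The range held 356 of the 596 runs of the library, but 9780 of the 66769 sequences tested in both orientations. The rest of a run was thus an unlike comparator in the library, and its shares of breaks are not like for like. Breaks from a run were seldom shared by the orientations. Runs were cut on the mean of both orientations, so shared departures could be taken up by the cutting and opposite ones could not. Of 9780 sequences, 317 were higher in both (3.24%) and 393 lower in both (4.02%), against 8.55% and 18.1% of all sequences, and 324 were called in opposite directions (3.31%), against 1.99% of all sequences. Without replicate 1 the counts of shared breaks were 178 higher and 165 lower, and without replicate 3 they were 128 and 118.

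Shared breaks made up a larger share of sequences up to 57000. Among numbers up to 57000, 184 sequences (19.3%) broke the same way in both orientations, and above 57000 526 did (5.96%). Across sequences the forward and reverse breaks had r = 0.516 in the former section and 0.122 in the latter. Against the 4 numbers before and the 4 after, in place of the run, r was 0.610 and 0.349. Above 57000, breaks of opposite sign from the run were 301, of which 40 (13.3%) lay in active stretches, which held 7.25% of the sequences. Against the 4 numbers before and the 4 after, breaks of opposite sign there were 80.

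The largest shared breaks lay where activity changed from 1 number to the next. In run 56794 to 56798, Seq_56798 was higher than the rest by 2.36 (SE 0.12, adjusted p = 6.25e-07 by edgeR) forward and by 2.75 (SE 0.06, adjusted p = 2.51e-08 by edgeR) reverse. Its own log2 RNA/DNA was 2.38, 2.36 and 2.08 in the forward replicates and 1.94, 2.08 and 2.00 in the reverse ones. The other numbers of the run, Seq_56794 to Seq_56797, lay between -0.46 and 0.28 forward and between -0.65 and -0.09 reverse. The breaks of Seq_56795 (-1.22 and -1.18) and Seq_56797 (-1.22 and -1.14) were therefore measured against a rest that holds Seq_56798. The reverse case was run 56149 to 56153, where Seq_56149 to Seq_56152 had 1.58 to 2.13 forward and 1.01 to 1.97 reverse. There Seq_56153, with replicate values of -0.21, -0.26 and -0.31 forward and -0.24, -0.26 and -0.35 reverse, was lower than the rest by -2.07 (SE 0.07) and -1.85 (SE 0.05).

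The other large breaks of this kind lay mostly up to 57000 too. Among the 10 largest in the lower direction, 8 were numbered below 57000, namely 56132, 56153, 56321, 56323, 56720, 56795, 56797 and 56909, and the other 2 were 60878 and 62068. Their breaks, apart from those of Seq_56153, were between -0.82 and -1.52 in either orientation. All of these numbers except 56909 and 62068 lay in runs of 5 numbers, the shortest length allowed, as did Seq_56798. A run held to that length can take in a number unlike the others. Against the rest of a fixed block of 10 numbers the forward breaks of Seq_56321, Seq_56323 and Seq_56720 turned to 0.081, 0.012 and 0.50, and Seq_56720 rested on 10 and 12 barcodes. Seq_62068 was the second number of the active stretch 62067 to 62078, with 0.03 forward and -0.32 reverse. Seq_60878 was the last number of its run, at -0.01 and -0.61. In the higher direction, Seq_56372 stood out of a run of 56 inactive sequences by 1.98 (SE 0.07) forward and 2.04 (SE 0.09) reverse. Its replicate values were 1.72, 1.72 and 1.49 forward and 1.43, 1.22 and 1.67 reverse. Seq_56188 was higher by 2.08 and 1.48, on 39 and 29 barcodes. Seq_63506, the second number of run 63505 to 63518, was higher by 1.37 and 1.02.

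Above 57000, 29.1% of copies were called as breaks from their run in either direction, against 47.0% in the whole library. Breaks called in both orientations, both against the run and against the 4 numbers on either side, at least 2 numbers from the ends of the run, were found for 158 of 8828 sequences (1.79%), 98 higher and 60 lower, against 19.7% of all sequences in the library. This definition was set after the values were seen. The shares over the library rest on the longer runs cut outside the range, so they are not like for like. Both breaks were at least 1.5-fold in 25 sequences, 17 higher and 8 lower, and at least 2-fold in 2, which were Seq_60132 and Seq_65031. Another such break lay directly beside 31 of the 158.

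Seq_60132 had replicate values of 1.51, 1.50 and 1.53 forward and 0.95, 0.67 and 0.91 reverse. It was higher than its run, 60127 to 60136, by 1.18 (SE 0.12, adjusted p = 4.73e-05 by edgeR) and 1.06 (SE 0.12, adjusted p = 7.83e-05 by edgeR). Its direct neighbours were Seq_60131, with 0.65 and 0.27, and Seq_60133, with 0.14 and -0.42, so it was the highest on either side in both orientations. Seq_65031 was higher than its run by 1.15 (SE 0.09) and 1.02 (SE 0.11), with 1.24, 1.02 and 1.03 in the forward replicates and 0.74, 0.84 and 0.67 in the reverse ones. Seq_64854 was higher by 1.68 (SE 0.12) forward but by 0.94 (SE 0.10) reverse, and Seq_63581 by 0.99 (SE 0.12) and 0.84 (SE 0.10). Each of these single active elements carried 64 to 102 barcodes per orientation.

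Of the 60 lower breaks, 12 lay directly beside another lower one. In run 61684 to 61696 the neighbours Seq_61688 and Seq_61689 were low in both orientations, at -0.19 and -0.30 forward and at -0.56 and -0.51 reverse. Before them Seq_61686 and Seq_61687 had 0.86 and 0.59 forward and 1.44 and 0.88 reverse. After them forward copies returned to 0.39 to 0.68 while reverse copies stayed between -0.51 and 0.18. The break of Seq_61689 was -0.79 (SE 0.07, adjusted p = 1.76e-05 by edgeR) forward and -0.80 (SE 0.10, adjusted p = 0.000145 by edgeR) reverse. Run 63925 to 63935 was a mosaic. Seq_63926, Seq_63930, Seq_63931 and Seq_63935 had 0.88 to 1.32 forward and 1.12 to 1.46 reverse, and the numbers between them, Seq_63927 to Seq_63929 and Seq_63932 to Seq_63934, had -0.10 to 0.39 and -0.28 to 0.34. Seq_63929 was lower than this run by -0.72 (SE 0.15) and -0.66 (SE 0.11), and Seq_63928 by -0.71 (SE 0.20) and -0.65 (SE 0.09). Seq_63282, in the active run 63280 to 63294, was lower by -0.70 (SE 0.21) and -0.74 (SE 0.16), with forward replicates of -0.45, 0.18 and 0.18 that differed widely.

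Some elements broke from their run in 1 orientation. Seq_61036 had the largest such rise. In a run of 107 inactive sequences it was higher by 1.82 (SE 0.11, adjusted p = 1.62e-06 by edgeR) forward and by 0.08 (SE 0.15, adjusted p = 0.703 by edgeR) reverse. Its replicate values were 1.27, 1.12 and 1.38 forward and -0.23, -0.08 and -0.63 reverse, with no overlap. Seq_61838, in a run of 90 inactive sequences, was higher by 1.31 (SE 0.12) forward and by 0.18 (SE 0.11) reverse. Seq_63484, at the start of its run, was higher by 1.38 (SE 0.10) forward and by 0.24 (SE 0.11) reverse, but its reverse copy was itself active, at 1.70. Against the 4 numbers before and the 4 after, its reverse break was called too (0.646, adjusted p = 6.87e-06 by edgeR). Those of Seq_61036 (0.12) and Seq_61838 (0.249) were not.

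In the lower direction the largest 1-sided breaks lay at the ends of runs. Seq_58077, next to last in the active run 58072 to 58078, was lower by -1.30 (SE 0.10) forward, with replicate values of -0.18, -0.25 and 0.04. Its reverse copy did not part from the run (0.03, SE 0.08), at 1.46, 1.35 and 1.41. Seq_58636, the first number of the active stretch 58636 to 58651, showed the mirror image, with a reverse break of -1.27 (SE 0.09) and a forward break of 0.03 (SE 0.11). Seq_56724 was lower by -1.58 (SE 0.14) forward and parted by 0.09 (SE 0.14) reverse in the run that holds Seq_56722, the most active member. These breaks were 1-sided only against the run. Against the 4 numbers before and the 4 after, the other orientation was called higher in each case. The values were 0.308 for Seq_58077 reverse, 0.554 for Seq_58636 forward and 0.865 for Seq_56724 reverse.

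The single most active copies were Seq_56722_fwd and Seq_57550_fwd. Seq_56722_fwd had 130, 129 and 162 DNA counts and 2652, 2281 and 2294 RNA counts, on 44 barcodes. Scaled by library totals its DNA stood at 3.76 ± 0.86 CPM and its RNA at 21.7 ± 1.26 CPM (SD, n = 3). Its log2 RNA/DNA was 2.97 (SE 0.11, adjusted p = 5.89e-22 by edgeR). Its rank in the whole library was 261. Its reverse copy was lower, at 1.12, and its neighbours Seq_56721 and Seq_56723 had -0.73 and 0.76 forward, so it stood alone. Seq_57550_fwd, at 2.96, was by contrast part of the highest run, on 77 barcodes, with 4.68 ± 0.49 CPM in DNA and 26.9 ± 2.11 CPM in RNA.

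The lowest copies rested on few barcodes. Seq_65974_rev had a log2 RNA/DNA of -1.63 (SE 0.46, adjusted p = 0.00243 by edgeR) on 3 barcodes, with 28, 21 and 16 DNA counts. Seq_56213_rev had -1.59 (SE 0.46) on 1 barcode. The forward copies of these sequences had -0.82 and -0.81.

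Barcode number and DNA level were also alike between neighbours. The range was marked out by likeness of RNA over DNA, and copies were filtered on DNA counts. DNA level is therefore not independent of the choice of members. Above 57000 r of log2 barcode number between forward and reverse copies was 0.435 at a distance of 1, 0.153 at 10 and 0.0446 at 17, against 0.322, 0.03 and 0.0093 between 31000 and 56000. For log2 DNA CPM r was 0.312, 0.143 and 0.0529. Activity itself was nearly unrelated to either, with r across copies of 0.0699 for barcodes and -0.0345 for DNA CPM. The part of barcode number and DNA level in the likeness of activity was not tested. Numbers that could not be measured lay together as well. Of the 220 numbers not measured in both orientations (2.2%), 35.5% were followed by another. The longest gap took in 14 numbers, 57215 to 57228, and others ran from 59391 to 59403 and from 65048 to 65056.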

How the data were processed

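DNA and RNA barcode libraries of 3 replicates of HepG2 cells were used as the deposited counts per element copy, per the file headers. The sources used here do not state whether reads or molecular identifiers were counted. The authors' deposited table over pooled replicates also gives CPM, a ratio of RNA to DNA and its log2, which served only to read what the columns hold. BWA 0.7.17 and the build hg38 are named, with no role, per the submitters' processing notes.

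A copy entered the tests if every DNA library held 10 or more counts of it. Tests used edgeR 4.0.16 in R 4.3.3 (quasi-likelihood, TMM), fitted on the whole library and adjusted over it by Benjamini-Hochberg. Tests across orientations, parts of a stretch, or a copy and the rest of its run were interactions with molecule. Values per replicate are log2((RNA CPM + 1)/(DNA CPM + 1)). All tests were two-sided. The scripts were tested on simulated data.

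Runs were cut by a least-squares partition with a penalty of 3. The planned rule would have taken blocks of 2 numbers, which cannot hold a run, so the partition was used, a choice made after seeing the data. Active stretches, tilt and breaks inside runs were also added then. The members and lists were chosen with earlier results of these data known.

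Elements named by rule were the 5 highest and 3 lowest runs and their highest and lowest copies, the 10 lower and 5 higher shared breaks, the 3 largest one-sided breaks each way, the 3 runs with the largest called orientation difference each way, and the 2 most and 2 least active copies. The stretches and the inside-run breaks described singly were chosen after their values were seen. Alternatives were limma 3.58.1, DESeq2 1.42.0, other scalings, filters, folds and comparators, a replicate block and leaving out each replicate.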

Additional observations from a re-analysis of the deposited data

Results flagged for a closer look

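In 31 active stretches the forward minus reverse difference fell along the numbers by an interaction test with edgeR. In 24 of them forward activity went down and reverse activity up. Run 58370 to 58376 was higher in reverse, with a tested difference of -1.21, and run 61672 to 61676 was higher forward, with a tested difference of 1.47. Outside the tested copies, 9 member copies had RNA counts and no DNA count in any library. These copies had a median of 14 RNA counts, and 5 of them were above the 8.76 RNA counts that correspond to 3 DNA counts.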

How the results depend on the processing

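With library sizes alone, without TMM factors, activity calls were 1250 higher and 16065 lower, and run calls 155 higher and 510 lower. The forward value of run 58370 to 58376 was then -0.38, that of 57188 to 57193 was -0.091, and the reverse values of 64259 to 64263 and 63477 to 63483 were -0.21 and -0.11. At a fold of at least 2, activity calls were 753 higher and 124 lower. At 1.5-fold, breaks were 503 higher and 373 lower, and 61 and 42 in both orientations. Against the rest of a block of 10 numbers, shared breaks were 511 higher and 639 lower, and the forward breaks of Seq_56321, Seq_56323 and Seq_56720 were 0.081, 0.012 and 0.50. Leaving out each replicate in turn gave 1671 to 1762 forward and 265 to 319 reverse orientation calls, 1320 to 2207 higher and 1574 to 2675 lower breaks, and 128 to 249 higher and 118 to 285 lower shared breaks. Leaving out a replicate also changed the sign of 4 uncalled breaks, whose ranges were -0.064 to 0.29 for Seq_61036_rev, -0.04 to 0.313 for Seq_56724_rev, -0.008 to 0.05 for Seq_58077_rev and -0.144 to 0.182 for Seq_58636_fwd. The correlation at a distance of 1 was 0.587 with a pseudocount of 0.1 CPM and 0.382 by Spearman's method, which gave 0.221 at 10. A penalty of 6 gave 213 runs. A stretch threshold of 1 gave 25 stretches, 8 of them of 14 to 18 numbers. The cause of these changes was not tested. Of 660 refits of 84 named results, 617 kept their direction and side of the threshold, 18 lost the call, 13 gained one and 12 changed sign. Same-numbered DNA and RNA libraries deviated together only weakly (r of 0.034, 0.046 and 0.052), and differently numbered ones had r of -0.035 to -0.01. The main edgeR tests therefore did not take the numbers as pairs. Values per replicate did, since each sets RNA over the DNA of the same number. With a replicate block, activity calls were 2481 and 9640, orientation calls 2679 and 424, breaks 2602 and 3230, and falling stretches 33. Low DNA counts limit copies on few barcodes, and 133 listed copies were under the DNA minimum.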
